A study of Mus musculus with 8 samples.

Results

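The transcript response to corticosterone was measured in peritoneal macrophages that carry a myeloid deletion of the mineralocorticoid receptor gene Nr3c2. It was read from 4 of the 8 arrays of the series, as the 2 arrays of knockout cells given the hormone minus the 2 arrays of untreated knockout cells. All genes with a probe set of their own were members, each read from its brightest probe set by mean level (all arrays counted), which gave 18193 genes of 18193 in all. The knockout cells came from mice labelled MR fl / fl, LysM cre, in which Cre is made from the lysozyme M locus, active in macrophages, monocytes and neutrophils. The control cells, used here only to compare the response, were labelled MR fl / fl. All mice were male C57BL6/J and had received 3% aged Brewer's thioglycolate into the peritoneal cavity 4 days before collection. Adherent cells, in medium with serum, were then kept for 24 h with 1 µM corticosterone or without it. Each sample was pooled from experiments done in triplicate and each group holds 2 samples named as biological replicates, so p-values measure the spread between 2 pooled samples.

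Corticosterone is the main glucocorticoid of mice. It binds the glucocorticoid receptor, encoded by Nr3c1, and with higher affinity the mineralocorticoid receptor, and both are nuclear receptors that move to DNA once bound and raise or lower transcription of nearby genes. In macrophages the glucocorticoid receptor is known for damping inflammatory genes and for raising genes of debris uptake and tissue repair. Cells without the mineralocorticoid receptor therefore show which transcripts respond while that receptor is reduced or gone.

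Nr3c2 lay at 5.54 and 5.82 log2 units on the untreated knockout arrays and at 5.11 and 5.47 on the corticosterone arrays, against 6.39, 6.39 and 6.13 on 3 of the control arrays and 8.46 on control untreated replicate 2. The probe set cannot show how many cells had lost the receptor, and whether it lies in the deleted part was not tested. That control array stood apart from the other 7, with a median correlation of 0.919 with the other arrays against 0.994 to 0.995. Its control probe sets for the 3' minus the 5' end differed by 2.18 log2 units for beta-actin and 1.84 for Gapdh. On the other 7 arrays these differences were 0.41 to 0.62 and 0.65 to 0.79. The reason was not tested, and the array took no part in the results below unless stated. The knockout arrays resembled each other closely: the median distance between replicates was 0.096 log2 units without hormone and 0.077 with it. Csf1r, the growth factor receptor that macrophages depend on, read 13.55 to 13.59 on the 4 knockout arrays and Lyz2, lysozyme M, between 13.58 and 13.62. Both groups overlapped for these macrophage transcripts. Nr3c1 lay at 11.32 and 11.21 log2 units without hormone and at 11.05 and 11.09 with it, a fall of 0.19 (limma adjusted p = 0.039) that missed the threshold when either corticosterone replicate was left out (adjusted p = 0.24 without replicate 1 and 0.15 without replicate 2) or without untreated replicate 1 (adjusted p = 0.073).

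Of the 18193 genes, 1920 (10.6%) passed the test at a limma adjusted p under 0.05. Of these, 815 (4.48% of all genes) rose with corticosterone and 1105 (6.07%) fell. Brighter genes were called more often: the median level was 10.42 log2 units for genes that rose and 9.63 for those that fell, against 7.32 over all genes. When the 9096 genes above the median level were fitted alone, 850 rose and 1109 fell, so the shares over all genes are a low reference for lists of brighter genes. Higher genes were thus 42.4% of the calls; when the arrays were instead centred on their medians they were 56.0% of 1558 calls. For each of the 1920 the replicates of the 2 groups did not overlap. The share over all genes was not counted, so this adds no support to the calls. Most changes were small, with a median rise of 0.39 log2 units and a median fall of 0.44. Over 1 log2 unit 95 genes rose and 160 fell, and over 2 log2 units 25 rose and 14 fell. The calls depended on single arrays. Without a corticosterone array the spread came from the untreated pair alone. The median SE was then 0.147 for either replicate left out, against 0.128 without either of the untreated arrays. With the outlying control array in a fit of all 8 arrays, 27 genes were called. Larger changes depended on them less, since 238 of the 255 genes that moved by over 1 log2 unit were called whichever single array was left out, against 829 of all 1920. A list of 44 measured genes known to be induced by glucocorticoids held 25 of the calls, 18 that rose and 7 that fell, so 1895 calls lay outside it.

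The well-known genes that moved most were Orm2, an acute phase plasma protein, Cd163, the scavenger receptor for haemoglobin bound to haptoglobin, Fkbp5, a chaperone of the glucocorticoid receptor, and Ddit4, an inhibitor of the growth kinase mTORC1. Orm2 went from 2.60 and 2.99 log2 units to 7.52 and 7.38, and Cd163 from 6.44 and 5.92 to 10.69 and 10.77. Fkbp5 read 8.45 on both untreated arrays and 12.07 on both corticosterone arrays. Ddit4 read 9.42 and 9.74 against 12.37 and 12.29. All 4 were at least 2.75 log2 units higher with hormone, and the groups lay far apart. The other 2 probe sets of Fkbp5 differed by 3.61 and 0.26.

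The largest increase outside that list was in Chil3, which encodes a secreted chitinase-like lectin made by alternatively activated mouse macrophages. Its level was 6.39 and 6.12 log2 units without hormone and 12.31 and 12.32 with it, a rise of 6.06 (SE 0.093, limma adjusted p = 3.6e-07) or 66.8-fold. Both untreated arrays were low and both hormone arrays high. Lyve1, a receptor for hyaluronan on tissue-resident macrophages, read 4.78 and 4.68 against 8.19 and 8.32. Ms4a6b, of the tetraspan MS4A family, read 8.88 and 8.82 against 11.99 and 12.02. For both genes the replicates lay close together and the groups far apart.

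Several of the largest increases were in enzymes. Sult1a1, which adds sulfate to phenols and thyroid hormone, went from 7.13 and 6.82 log2 units to 10.35 and 10.42. Cdo1, cysteine dioxygenase, which starts the breakdown of cysteine to taurine, went from 6.44 and 6.49 to 9.84 and 9.87. Arg1, arginase, which turns arginine into ornithine and urea, went from 7.62 and 7.38 to 10.24 and 10.17. Cbr2, a carbonyl reductase, was 2.46 log2 units higher (SE 0.080) and Lipg, endothelial lipase, 2.12 (SE 0.199). For Lipg, 2 other probe sets differed by 0.16 and 2.15. Groups that did not overlap were a condition for entry among these largest changes.

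Transporters and receptors made up much of the rest. Nipal1, a magnesium transporter, rose from 4.56 and 4.72 log2 units to 8.06 and 8.01. Slc10a6, a carrier that takes up sulfated steroids, rose from 5.27 and 5.18 to 7.81 and 8.0. Gpr35, a G protein-coupled receptor, rose from 8.45 and 8.46 to 10.69 and 10.64. Lifr, the receptor subunit for leukaemia inhibitory factor, was 2.11 log2 units higher, with its 2 other probe sets at 0.59 and 2.43. Tg, thyroglobulin, was higher by 2.29, Hhipl1 by 2.19 and Adamtsl4, a protein of fibrillin fibres, by 2.15. All 15 were called whichever array was left out.

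**Figure D1:**
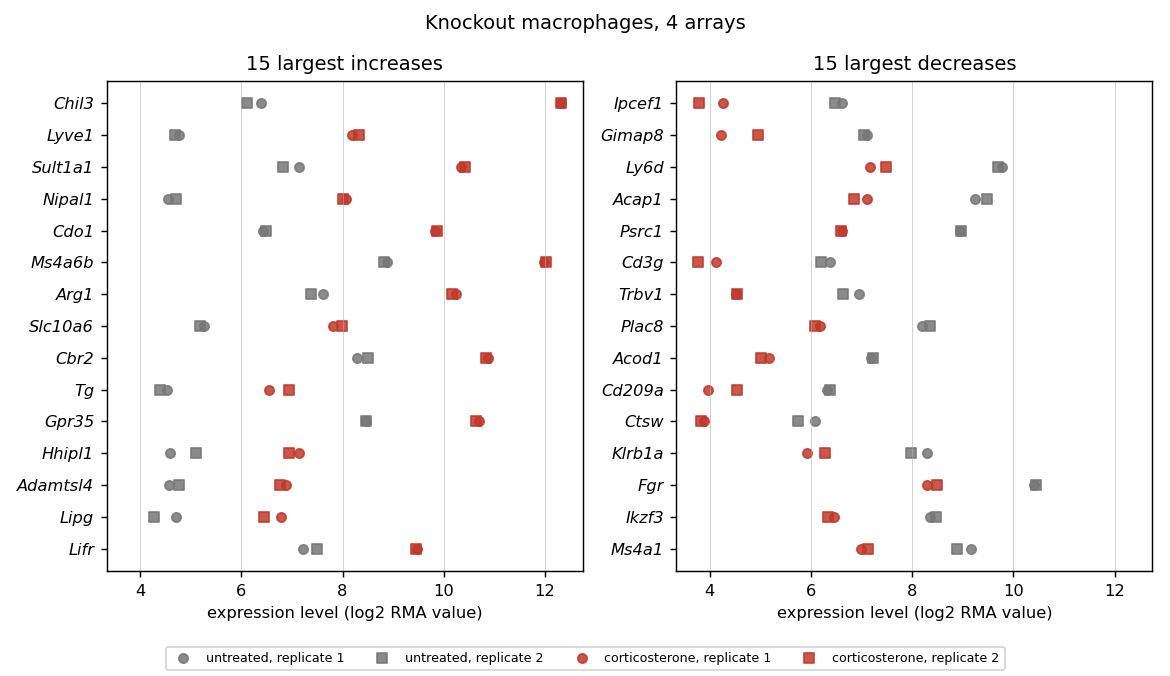
Expression level (log2 RMA value, horizontal) of the 15 genes that rose most and the 15 that fell most in knockout macrophages, outside the list of well-known glucocorticoid-induced genes. Points are single arrays, grey untreated and red with corticosterone, with circles for replicate 1 and squares for replicate 2. In each row the 2 grey points lie apart from the 2 red ones, which was a condition for choosing the genes. The widest gap is that of Chil3 (6.39 and 6.12 against 12.31 and 12.32).

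The 15 largest decreases divided between genes of lymphocytes and genes of myeloid or dividing cells. Among the first were Cd3g, a subunit of the T cell receptor complex, Trbv1, a variable segment of its beta chain, Ms4a1, the B cell antigen CD20, and Ikzf3, the lymphoid transcription factor Aiolos. Cd3g read 6.39 and 6.20 log2 units without hormone and 4.13 and 3.77 with it. Ms4a1 read 9.16 and 8.88 against 6.99 and 7.13. Both fell by about 2 log2 units or more (differences -2.34 and -1.96). Ctsw, a protease of cytotoxic lymphocytes, fell by 2.06, Gimap8, of the immunity-associated GTPases of lymphocytes, fell by 2.49, and Ly6d, a surface protein of the B lineage, fell by 2.42. Klrb1a, a lectin-like receptor of natural killer cells with close relatives in the genome, fell by 2.04. Ipcef1 and Acap1, which act on the small GTPase ARF6 and its exchange factors, fell by 2.52 and 2.38; for Ipcef1 the other 2 probe sets differed by only -0.25 and -0.04, and further probe sets of Trbv1 (-0.31) and Ikzf3 (-0.64 and -0.35) also differed less than the ones reported.

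Decreases of myeloid genes included Acod1, the enzyme that makes itaconate in activated macrophages, at 7.18 and 7.22 log2 units without hormone and 5.17 and 5.01 with it. Fgr, a Src family kinase of myeloid cells, went from 10.40 and 10.45 to 8.30 and 8.49. Cd209a, a C-type lectin of dendritic cells and some macrophages, went from 6.33 and 6.38 to 3.97 and 4.54. In each of the 3 the hormone arrays were the low ones. Plac8 fell by 2.15 and Psrc1, a protein of the mitotic spindle, fell by 2.34 (SE 0.089), the latter from 8.94 and 8.96 to 6.62 and 6.59.

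Markers of other cell types moved with these decreases. Of 10 measured B cell markers 6 fell and none rose, with a median difference of -1.36 log2 units against -0.02 over all genes, and their mean level was 7.48 and 7.34 without hormone and 6.33 and 6.36 with it. Cd79a, a signalling chain of the B cell receptor, fell by 1.48, Blk, a B cell kinase, by 1.40 and Fcmr, the IgM Fc receptor, by 1.48. Of 14 T and natural killer cell markers 7 fell and none rose, with mean levels of 5.24 and 5.16 against 4.30 and 4.36. Cd3d and Cd3e fell by 1.87 and 1.69, while Ncr1, of natural killer cells, read between 3.07 and 3.17 on all 4 arrays. The same lists were lower with hormone in control cells, where the B cell mean was 7.15 on the untreated array used and 6.25 and 6.28 with corticosterone. In these bulk samples fewer cells of a type and less RNA per cell cannot be told apart, and the part of lymphocytes in the decreases named above was not tested.

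Other marker lists moved less. Of 9 dendritic cell markers 4 fell, of which Itgax, an integrin that macrophages also make, read 13.02 on both untreated arrays against 12.59 and 12.58. Cd209a was another; Ccr7 (-0.91) and Dpp4 (-0.89) lost the call without corticosterone replicate 2 (adjusted p = 0.22 and 0.076), and Ccr7 also without untreated replicate 1 (adjusted p = 0.09). Flt3, Xcr1 and Zbtb46, which define dendritic cells, did not pass. Among 6 eosinophil markers Siglecf fell by 0.97, and Il5ra fell by 0.96 (adjusted p = 0.073 without corticosterone replicate 1), but Epx and Prg2, the granule proteins, lay between 2.59 and 3.74 on all 4 arrays. Fcer1a, the alpha chain of the IgE receptor, rose from 4.62 and 4.53 to 6.21 and 6.29 while Kit and Ms4a2, which define mast cells, did not pass. Gata2, a transcription factor of mast cells and progenitors, fell by 1.08, and Cpa3, a mast cell protease, rose by 0.78 (adjusted p = 0.076 without corticosterone replicate 2). Of 15 mesothelial and fibroblast markers none rose (4 did with arrays centred on their medians and 3 with quantiles) and Pdpn, which macrophages also express, fell by 0.32; the list's mean was 7.32 and 7.35 without hormone and 7.60 and 7.37 with it, highest on corticosterone replicate 1. None of 9 endothelial markers passed in limma's test (3 had an unadjusted p under 0.05), and of 7 erythroid and platelet markers Pf4, a chemokine that macrophages also make, alone rose (0.60).

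Macrophage markers mostly held or rose. Of 13 measured, 7 rose and 2 fell, and their mean was 12.27 and 12.25 log2 units without hormone and 12.50 and 12.49 with it. Mertk, the kinase receptor for dying cells and also a known glucocorticoid-induced gene, rose by 1.71 (SE 0.053). The complement subunits C1qa and C1qc rose by 0.72 and 0.53. Itgam, the integrin chain CD11b, was 1 of the 2 that fell (-0.52). Among markers of resident peritoneal macrophages 6 of 10 differences were positive, with a median of 0.15 log2 units, and 6 did not pass. Of 10 markers of resident peritoneal macrophages 4 rose and none fell: Lyve1, Selp (1.36), Vsig4, a complement receptor (1.31), and Fcna, a ficolin (0.17, adjusted p = 0.0504 and 0.085 without corticosterone replicates 1 and 2).

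**Figure D2:**
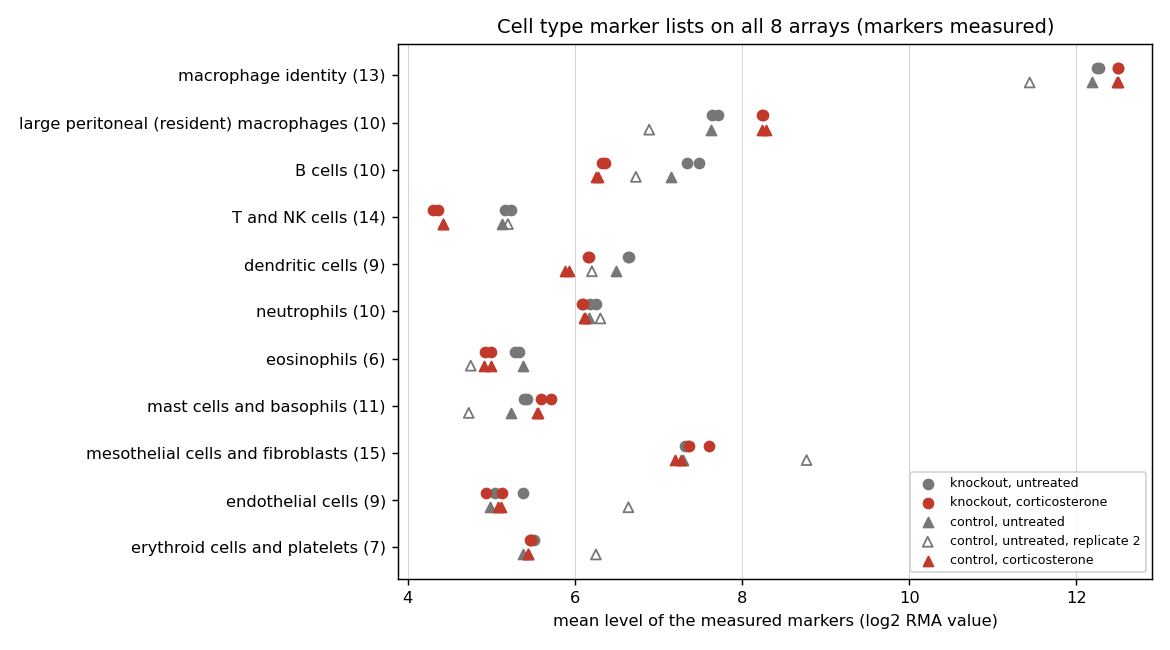
Mean level (log2 RMA value, horizontal) of the measured markers of 11 cell types on all 8 arrays, with the number of markers in brackets. Circles are knockout arrays and triangles control arrays, grey untreated and red with corticosterone; the B cell mean fell from 7.48 and 7.34 to 6.33 and 6.36 in knockout cells, and the open triangle, control untreated replicate 2, is apart in most rows.

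Gene starts were searched for letters of known regulatory motifs in the 14452 genes with a RefSeq entry (GRCm38.p6), in a window from 250 bases before to 50 after the start and on both strands. The loose core of the glucocorticoid response element (GNACA, any 3 bases, then TGTNC) stood in 0.422% of all windows, in 0.447% of those of genes that rose (3 of 671) and in 0.342% of those of genes that fell (3 of 876). Among genes that rose by over 1 log2 unit it stood in 2.6% (2 of 77), and among the 15 largest decreases in 1 of the 9 with an entry. The full palindrome (AGAACA, any 3 bases, then TGTTCT) was found in 2 genes in all, neither of which rose. Slc10a6 was the 1 gene with the loose core among the 14 largest increases that had an entry, and its 250 bases before the start, on the minus strand at chr5:103629404-103629653, are shown with the core in capitals.

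Slc10a6: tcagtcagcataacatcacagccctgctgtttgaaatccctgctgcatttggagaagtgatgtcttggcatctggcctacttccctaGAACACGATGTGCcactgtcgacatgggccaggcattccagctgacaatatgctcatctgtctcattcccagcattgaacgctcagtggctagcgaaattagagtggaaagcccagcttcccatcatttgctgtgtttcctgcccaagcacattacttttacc

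Among the mitosis genes described below, 13 of the 21 with an entry that fell held both TTTGAA, the core of the cell cycle homology region (CHR), and the CCAAT box, as did 13 of the 25 that did not fall, against 6.21% of all windows. TTTGAA alone stood in 14 of 21 and in 18 of 25, and in 15.7% of all; CCAAT stood in 17 of 21 and in 15 of 25, and in 42% of all. The windows of Mki67, the proliferation antigen, Cdk1, the kinase that starts mitosis, and Top2a, which untangles DNA, show the arrangement; Cdk1 and Top2a were chosen after their values were seen. All 3 are on the minus strand, at chr7:135716380-135716629, chr10:69352913-69353162 and chr11:99024190-99024439 in that order, and capitals mark both motifs on either strand, which share no bases.

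Mki67: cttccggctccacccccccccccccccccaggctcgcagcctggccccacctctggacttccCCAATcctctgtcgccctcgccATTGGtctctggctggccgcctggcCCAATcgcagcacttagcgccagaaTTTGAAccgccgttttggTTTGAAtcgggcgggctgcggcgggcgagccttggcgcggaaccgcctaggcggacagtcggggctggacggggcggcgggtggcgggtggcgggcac
Cdk1: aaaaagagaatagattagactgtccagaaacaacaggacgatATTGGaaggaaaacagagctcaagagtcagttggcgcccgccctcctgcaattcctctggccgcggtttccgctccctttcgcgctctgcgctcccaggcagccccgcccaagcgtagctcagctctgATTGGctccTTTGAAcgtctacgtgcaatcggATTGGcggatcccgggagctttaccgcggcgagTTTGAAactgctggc
Top2a: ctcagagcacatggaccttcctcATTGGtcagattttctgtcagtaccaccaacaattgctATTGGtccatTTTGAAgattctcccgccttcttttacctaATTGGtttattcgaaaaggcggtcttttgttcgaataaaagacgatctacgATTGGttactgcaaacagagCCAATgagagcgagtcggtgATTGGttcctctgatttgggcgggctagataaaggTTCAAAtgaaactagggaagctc

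Genes of cell division were lower with corticosterone. Of 55 measured genes of mitosis and the kinetochore 24 fell and 1 rose, with a median difference of -0.52 log2 units, and 2 of the 55 differences were positive. Mki67 read 8.62 and 8.65 without hormone and 7.87 and 7.41 with it. Nusap1, which bundles spindle microtubules, read 7.88 and 8.03 against 6.76 and 6.53, and Bub1b, of the spindle checkpoint, 7.31 and 7.27 against 6.33 and 6.22. In all 3 the groups stayed apart, although the corticosterone replicates differed from each other more than the untreated ones, with replicate 1 the higher. Cdk1 and Top2a, whose windows are shown above, fell by 0.74 and 0.65, and Pbk, a mitotic kinase, by 0.98. Other probe sets differed by -0.15 and 0.02 for Top2a, by -0.30 for Nusap1 and by -0.97 and -0.23 for Bub1b. Ncapg2, a condensin subunit named because it alone rose, was higher by 0.78.

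Replication genes were lower too. Of 43 measured genes of licensing and DNA synthesis 20 fell and none rose, with a median of -0.24 log2 units and 1 positive difference. Tk1, thymidine kinase, fell from 8.42 and 8.47 to 7.28 and 6.90, Pole, a replicative polymerase, by 0.88, and Uhrf1, which maintains DNA methylation after replication, by 0.82. Without corticosterone replicate 1 the falls numbered 12 and without replicate 2 they numbered 6, and for mitosis 17 and 11. Of 42 DNA repair genes 6 fell and 1 rose in the fit of all 4 arrays, and none passed in either direction without corticosterone replicate 2. The list of p53 targets and cell cycle inhibitors also leaned down, with 8 of 31 lower and 1 higher (4 without untreated replicate 2): Phlda3, a target of p53 that restrains AKT, fell by 1.27 and Rbl1, a relative of the retinoblastoma protein, by 0.56. Beside these falls the B cell and T cell means fell and the fibroblast mean was highest on corticosterone replicate 1, as given above, and the part of those cells in the cell division genes was not tested.

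**Figure D3:**
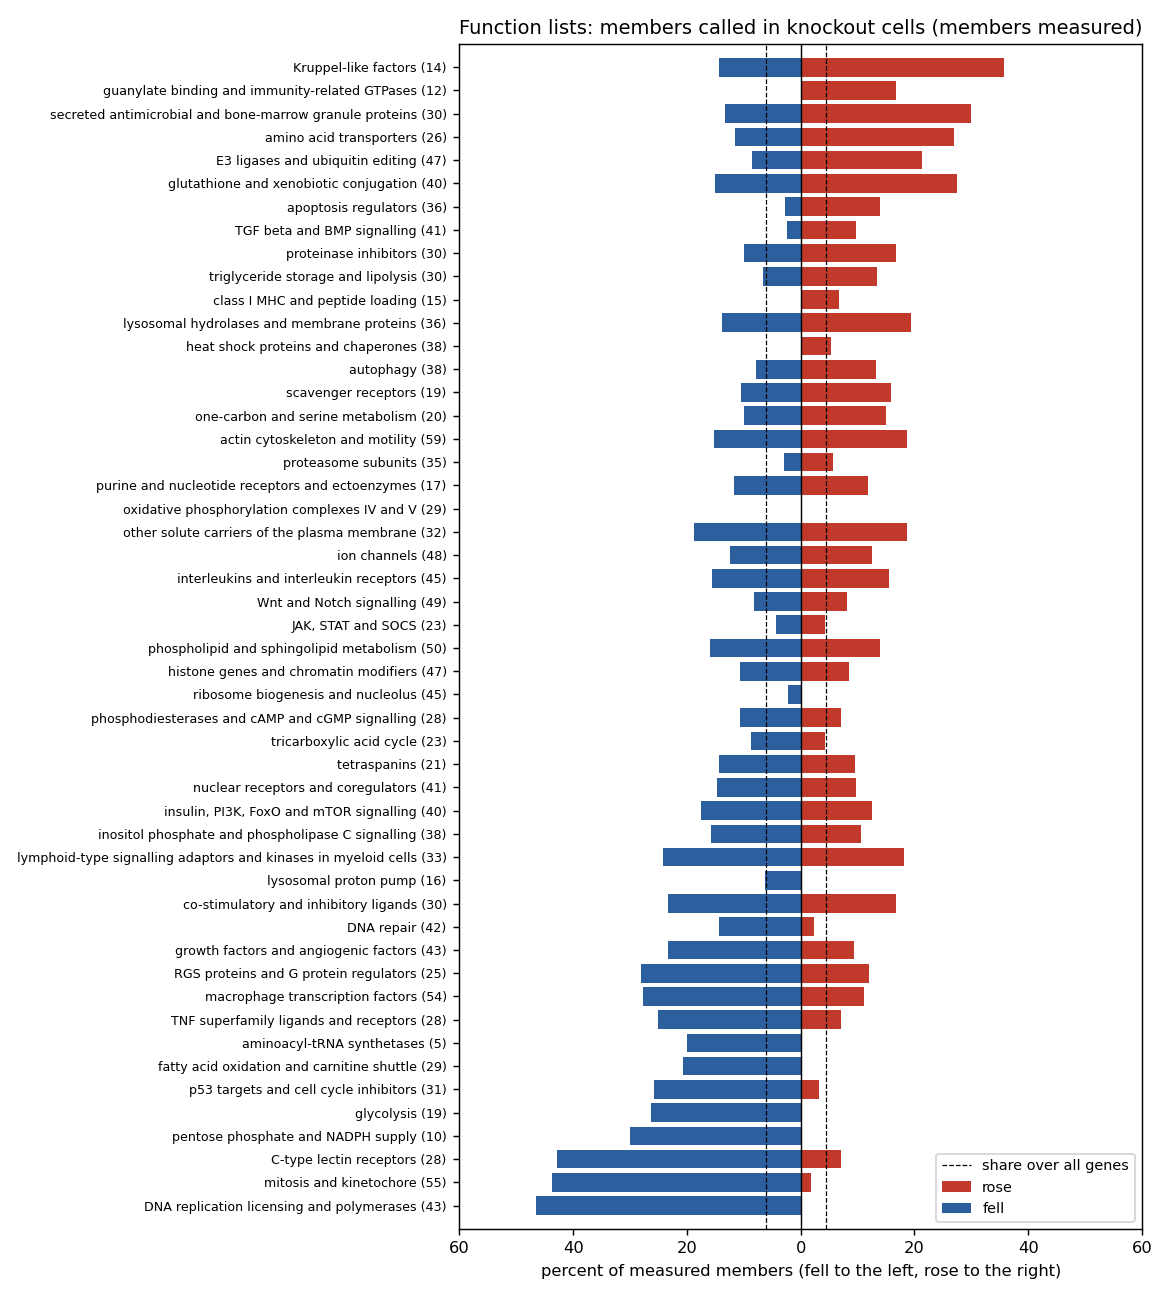
Share of measured members that rose (red, right) or fell (blue, left) in knockout cells for each function list described here, in percent, with the number measured in brackets. Dashed lines give the shares over all genes (4.48% rose, 6.07% fell), a low reference for lists of brighter genes. Of the 9096 genes above the median level, fitted alone, 850 rose and 1109 fell. DNA replication, mitosis and C-type lectin lists reach furthest left (20 of 43, 24 of 55 and 12 of 28 fell). The lists were chosen with earlier results of these data known.

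Among surface receptors, C-type lectins, which bind sugars on microbes and dying cells, fell more often than they rose. Of 28 measured 12 fell and 2 rose, with a median of -0.37 log2 units. Clec4b1, of the Dectin-2 gene cluster, read 8.72 and 8.57 without hormone and 7.66 and 7.48 with it. Cd209b fell by 1.17 and Cd209a by 2.10. Olr1, the receptor for oxidised low-density lipoprotein, fell from 8.52 and 8.73 to 7.55 and 7.55. Clec10a, a galactose lectin of alternatively activated macrophages, moved the other way, from 10.04 and 10.15 to 11.66 and 11.62. The falls numbered 10 to 13 when 1 array was left out. Of 19 scavenger receptors 3 rose (5 without untreated replicate 1) and 2 fell: Stab1, stabilin, rose by 1.02 and Scarf1 fell by 0.68 beside Olr1.

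Cytokine systems were split. Of 45 interleukin genes and receptors 7 rose and 7 fell, and 3 fell when either corticosterone replicate was left out. Besides Lifr, Il15ra, which presents interleukin 15 to neighbouring cells, rose from 6.31 and 6.39 log2 units to 7.61 and 7.59, while Il21r, the interleukin 21 receptor, fell from 6.56 and 6.45 to 5.38 and 5.36. Of the tumour necrosis factor superfamily 7 of 28 fell and 2 rose, and the falls numbered 3 without corticosterone replicate 1. Tnf itself fell by 0.71, from 8.52 and 8.45 to 7.80 and 7.76. Cd40, the receptor through which T cells stimulate macrophages, fell by 0.72, and Ltb, lymphotoxin beta, which lymphocytes also make, fell by 1.54. JAK kinases, STATs and SOCS proteins hardly appeared: 1 of 23 rose (Socs3, 0.84, adjusted p = 0.13 without corticosterone replicate 1) and 1 fell (Socs5, -0.30, adjusted p = 0.054 and 0.23 without corticosterone replicates 1 and 2 and 0.064 without untreated replicate 2).

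Co-stimulatory and inhibitory ligands and receptors numbered 5 higher and 7 lower of 30, with 4 lower without corticosterone replicate 2. Vsig4, which also inhibits T cells, was the largest increase. Cd276, a B7 family ligand, fell from 9.80 and 9.82 log2 units to 8.48 and 8.49, and Pilrb1, an activating paired receptor, from 9.76 and 9.71 to 8.46 and 8.35. Class I antigen presentation barely figured, with 1 of 15 genes higher: Cd1d1, which presents lipids, rose by 0.43 (adjusted p = 0.13 and 0.2 without corticosterone replicates 1 and 2 and 0.079 without untreated replicate 2). Of 12 guanylate-binding and immunity-related GTPases 2 rose, Gbp7 by 0.65 and Irgm2 by 0.24 (adjusted p = 0.14 and 0.32 without corticosterone replicates 1 and 2 and 0.092 without untreated replicate 2).

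Signalling proteins that macrophages share with lymphocytes showed 8 lower and 6 higher of 33. Lat, the adaptor of the T cell receptor that mast cells and some myeloid cells also use, fell from 9.16 and 9.23 log2 units to 7.37 and 7.50. Malt1, a protease that leads to NF-kB, fell by 0.94 and Gab3, an adaptor of the Csf1r pathway, rose by 0.99. Of 38 genes of inositol phosphate and phospholipase C signalling 6 fell and 4 rose. Prkcb and Prkcd, protein kinases C, fell by 0.71 and 0.43, and Itpkb, an inositol trisphosphate kinase, by 0.36. The rises numbered 1 when either corticosterone replicate was left out, and the falls 10 without untreated replicate 1. The B cell mean fell beside these, as given above, and its part here was not tested.

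Regulators of G proteins gave 7 lower and 3 higher of 25, or 4 and 1 without corticosterone replicate 2. Rgs16, which shortens G protein signals, fell from 6.51 and 6.81 log2 units to 5.65 and 5.17, and Gngt2, a gamma subunit, from 9.40 and 9.37 to 8.45 and 8.49. Among 17 nucleotide receptors and ectoenzymes P2ry12, an ADP receptor best known from platelets and microglia, rose from 4.33 and 4.60 to 5.82 and 5.97. P2ry1, another ADP receptor, fell by 0.58 and P2rx7, the ATP-gated channel that starts interleukin 1 release, by 0.35. In the cAMP list 2 of 28 rose and 3 fell (1 and none fell without corticosterone replicates 1 and 2); Prkacb, a catalytic subunit of protein kinase A, rose by 0.34 with groups at 11.53 and 11.48 against 11.85 and 11.86.

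The insulin, PI3K, FoxO and mTOR list had 5 higher and 7 lower of 40. Pik3ip1 and Pik3r1, an inhibitor and a regulatory subunit of PI3K, rose by 1.50 and 0.52, beside the mTORC1 inhibitor Ddit4. Phlpp1, a phosphatase of AKT, fell by 0.49. Without corticosterone replicate 2, 1 of the 40 fell. Wnt and Notch genes were balanced at 4 and 4 of 49, or 2 higher and 1 lower without corticosterone replicate 2: Jag1, a Notch ligand, rose from 10.90 and 11.03 log2 units to 11.86 and 11.85 and Notch4, a receptor, from 5.04 and 5.36 to 6.95 and 6.78, where 2 other probe sets of Notch4 differed by 0.11 and 1.52. Nrarp, a Notch target, fell by 0.91 (adjusted p = 0.12 without untreated replicate 2 and 0.25 without corticosterone replicate 2). Of 41 genes of TGF beta and BMP signalling 4 rose and 1 fell, and 1 rose when either corticosterone replicate was left out; the ligands went opposite ways, with Tgfb2 higher by 0.40 (adjusted p = 0.069 without corticosterone replicate 2) and Tgfb1 lower by 0.30 (adjusted p = 0.14 and 0.12 without corticosterone replicates 1 and 2).

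Ion channels gave 6 higher and 6 lower of 48, with the larger changes downward. Hvcn1, the proton channel that balances charge during the oxidative burst, read 11.87 and 11.85 log2 units without hormone and 10.40 and 10.47 with it (SE 0.039, limma adjusted p = 4e-06). Ryr1, a calcium release channel, read 10.78 and 10.69 against 9.18 and 9.13, though its other probe set differed by -0.08. Kcne3, a potassium channel subunit, read 9.71 and 9.49 against 7.87 and 8.34. These fell by 1.42 to 1.58 log2 units, and Tmem37, a calcium channel subunit, rose by 0.86.

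Solute carriers moved both ways. Outside the amino acid carriers 6 of 32 rose and 6 fell. That list was named for the plasma membrane but also held carriers of other membranes, such as Slc2a6 of lysosomes. Its counts therefore do not describe the plasma membrane alone. Slco2b1, an organic anion carrier, rose from 7.52 and 7.78 log2 units to 9.48 and 9.50, and Slc24a3, a sodium, potassium and calcium exchanger, from 5.96 and 5.34 to 7.59 and 7.63. Slc2a6, a glucose transporter family member of lysosomes, fell from 10.09 and 10.08 to 8.62 and 8.50. Of 26 amino acid carriers 7 rose and 3 fell, and 3 rose when either corticosterone replicate was left out. Slc43a2 and Slc7a7, carriers of large neutral and of cationic amino acids, rose by 0.58 and 0.55. Slc7a11, the cystine importer, fell by 0.80 and Slc1a5, a glutamine carrier, by 0.45.

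Conjugation and glutathione genes were the metabolic list with most increases, at 11 higher and 6 lower of 40, or 5 and 4 when either corticosterone replicate was left out. Beside Sult1a1 and Cbr2, Gpx3, the secreted glutathione peroxidase, rose from 9.25 and 9.30 log2 units to 11.22 and 11.30. Nqo1, a quinone reductase known as a target of the oxidant sensor NRF2, fell from 8.13 and 8.37 to 7.09 and 7.04. In one-carbon and serine metabolism, Phgdh, which starts serine synthesis, rose by 0.36 beside Cdo1, and Mthfd1l, a mitochondrial folate enzyme, fell by 0.80. The list had 3 higher and 2 lower of 20, with 1 lower without corticosterone replicate 2.

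Fuel metabolism leaned down where it moved. All its lists had mean levels above the median of all genes (7.32 log2 units). Of the 9096 genes above the median level, fitted alone, 850 rose and 1109 fell. Of 19 glycolysis genes 5 fell and none rose. Aldoc, an aldolase, read 8.75 and 8.56 log2 units without hormone and 7.14 and 7.03 with it, and Pfkfb4, which sets the level of the glycolytic activator fructose bisphosphate, 9.35 and 9.39 against 8.58 and 8.54. Eno2, an enolase, fell by 0.29. Without corticosterone replicate 2, or with arrays centred on their medians, 3 of the 19 fell. Of 29 genes of fatty acid oxidation 6 fell, by 0.23 or less for the 4 largest, but without corticosterone replicate 1 none fell, without replicate 2 only 1 did and without untreated replicate 2 only 3 did; with arrays centred on their medians none did, and without untreated replicate 1 there were 4 rises. The 3 of 10 pentose phosphate genes that fell (Rpia, Pgd and Tkt) all lost the call when either corticosterone replicate was left out and with arrays centred on their medians. Of 29 subunits of oxidative phosphorylation complexes IV and V none passed, and 7 differences were positive and 6 had an unadjusted p under 0.05 in limma's test; the smallest p-values were those of Atp5e (-0.08, adjusted p = 0.079) and Cox8a (-0.07, adjusted p = 0.15). The citric acid cycle gave 1 higher and 2 lower of 23, none of them called when either corticosterone replicate was left out.

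In lipid handling, 4 of 30 triglyceride genes rose and 2 fell, and 2 and 1 rose without corticosterone replicates 1 and 2. Pnpla2, the triglyceride lipase of fat droplets, rose from 9.96 and 9.96 log2 units to 10.55 and 10.56, while Abhd5, its activator, fell from 11.93 and 11.86 to 11.48 and 11.49. Phospholipid and sphingolipid genes numbered 7 higher and 8 lower of 50, with 3 higher and 5 or 6 lower when either corticosterone replicate was left out. Plpp1, a lipid phosphatase, rose by 0.79, and Lpcat2, which makes platelet-activating factor in macrophages, fell by 0.56. Plbd1, of the phospholipase B family, fell by 0.96.

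Lysosome and autophagy genes showed small changes. These lists too had mean levels above the median of all genes. Of the 9096 genes above it, fitted alone, 1959 were called, beside 21.1% of the autophagy list. Of 36 lysosomal hydrolases and membrane proteins 7 rose and 5 fell, and 3 rose and 2 fell when either corticosterone replicate was left out. Acp5, the tartrate-resistant acid phosphatase, rose from 10.45 and 10.39 log2 units to 11.62 and 11.70 and Npc1, which exports cholesterol, by 0.37; Mcoln2, an ion channel, fell by 0.51. Of 16 subunits of the proton pump only Atp6v0a1 passed, at 12.62 and 12.65 against 12.21 and 12.18. Of 38 autophagy genes 5 rose and 3 fell, and when either corticosterone replicate was left out 1 rose and none fell. Atg13, of the initiating kinase complex, rose by 0.54.

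In the list of antimicrobial and granule proteins 9 of 30 rose and 4 fell, or 6 and 2 when either corticosterone replicate was left out. Lcn2, which binds bacterial iron carriers and is also a known glucocorticoid-induced gene, rose from 5.50 and 5.39 log2 units to 7.62 and 7.78, and Ang, angiogenin, a secreted ribonuclease, from 8.71 and 8.76 to 10.74 and 10.77. Neutrophil markers did not follow: of 10, Mmp8 rose by 0.69 and S100a8 fell by 0.16, a call lost whichever array was left out (adjusted p = 0.056 to 0.32). Proteinase inhibitors gave 5 higher and 3 lower of 30, and 2 of each when either corticosterone replicate was left out. Serpinb1a, an inhibitor of neutrophil proteases, rose from 10.34 and 10.18 to 11.60 and 11.57, while its relative Serpinb1b fell by 1.04 and Spint1, an inhibitor of serine proteases, by 1.30.

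Growth and angiogenic factors gave 10 lower and 4 higher of 43, and the falls numbered 9 to 12 and the rises 1 to 4 when 1 array was left out, with the fewest falls without corticosterone replicate 2 and the fewest rises without replicate 1. Vegfa, the main angiogenic factor, fell from 8.29 and 8.32 log2 units to 7.25 and 7.36, Met, the receptor for hepatocyte growth factor, from 9.56 and 9.59 to 8.68 and 8.70, and Plxnd1, a semaphorin receptor, from 9.88 and 9.89 to 9.05 and 8.88. Thbs1, thrombospondin, which opposes vessel growth and activates TGF beta, rose from 8.92 and 8.81 to 10.22 and 10.39. These 4 are the called members with the largest change. Of the 43 differences in the list 19 were positive, and the median was -0.06 log2 units.

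Transcription factors of macrophages numbered 15 lower and 6 higher of 54, or 9 lower when either corticosterone replicate was left out, with 2 higher without replicate 1 and 3 without replicate 2. Bhlhe41, a repressor of the circadian clock, fell from 7.53 and 7.74 log2 units to 6.34 and 6.40. Spib and Ets1, ETS factors also high in B and T cells, fell by 1.23 and 1.13, beside the lymphocyte markers above. Kruppel-like factors had the largest share of increases of the 51 function lists in the fit of 4 arrays, 5 of 14, with 2 lower, and 3 rose when either corticosterone replicate was left out. The lists were chosen with earlier results of these data known, so the rank only describes them. Klf9, a known glucocorticoid target, read 11.57 and 11.62 against 12.39 on both hormone arrays, and Klf4 and Klf13 rose by 0.51 each. Klf2, which restrains inflammatory genes, fell from 9.20 and 9.35 to 8.24 and 7.87.

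Nuclear receptors and coregulators gave 4 higher and 6 lower of 41, and none rose and 2 fell without corticosterone replicate 2. Nr4a3, an orphan receptor induced by stimulation, fell from 7.28 and 7.36 log2 units to 5.96 and 5.95, though 2 other probe sets differed by -0.03 and 0.19. Of 47 histone genes and chromatin modifiers 4 rose and 5 fell, or 2 and 2 when either corticosterone replicate was left out; 8 rose with arrays centred on their medians or normalised again by quantiles. Jdp2, a repressor of AP-1 that binds histones, rose by 1.18 and Chd7, a chromatin remodeller, by 0.49.

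Cytoskeletal genes moved in both directions. Of 59 genes of actin and motility 11 rose and 9 fell, or 7 and 5 when either corticosterone replicate was left out. Tns1, tensin, which links integrins to actin and is a known glucocorticoid-induced gene, rose from 9.69 and 9.61 log2 units to 11.33 and 11.34, with other probe sets at 1.65 and 1.76. Evl, which speeds actin growth, fell by 0.59, Ablim1, an actin-binding LIM protein, by 0.72, and Pstpip1, a membrane-bending adaptor, by 0.49.

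Cell survival and ubiquitin lists held more rises than falls among their calls, with medians of 0.04 and 0.05 log2 units. Positive differences numbered 20 of 36 and 27 of 47. Of 36 apoptosis regulators 5 rose and 1 fell, and 2 rose when either corticosterone replicate was left out. Birc3, an inhibitor of apoptosis, rose from 10.00 and 9.95 log2 units to 10.74 and 10.73, and Mcl1, a survival protein, by 0.20; Bcl2, another survival protein and one that lymphocytes make, fell by 0.43. Of 47 E3 ligases and ubiquitin editors 10 rose and 4 fell, or 6 and 5 rose without corticosterone replicates 1 and 2. Klhl6, a substrate adaptor of cullin 3, rose from 9.41 and 9.30 to 10.92 and 11.04, and Cblb, which restrains receptor signalling, read 11.61 on both untreated arrays and 12.10 on both hormone arrays. Traf1, an adaptor of TNF receptors, fell by 0.73.

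Basic protein production and turnover showed few changes. Of 45 genes of ribosome biogenesis 1 fell (Dkc1, -0.34, adjusted p = 0.13 without corticosterone replicate 2) and none rose. Of 35 proteasome subunits 2 rose and 1 fell, of which Psmd1, a regulatory subunit, read 12.12 and 12.03 log2 units against 12.54 and 12.56; Psmc1 (0.19) and Psmb8 (-0.20) lost the call when either corticosterone replicate was left out (adjusted p = 0.079 and 0.16 for Psmc1, 0.12 and 0.084 for Psmb8). Of 38 chaperones Hspb1, a small heat shock protein, rose by 1.14 and Dnajb4, a co-chaperone, by 0.47, and none fell; 5 rose when either untreated replicate was left out. Among 21 tetraspanins 2 rose and 3 fell, or 1 of each when either corticosterone replicate was left out; Tspan3 rose by 0.35 and Cd9 fell by 0.22. Of 22 aminoacyl-tRNA synthetase genes listed 5 were measured, too few to describe the family. For some other named genes that passed, a further probe set differed by under 0.1 log2 units. Among those that fell it gave -0.08 for Dkc1, -0.07 for Abhd5, -0.06 for Ablim1, -0.05 for Plk2, another gene of the p53 list, and -0.01 for Dpp4. It also gave 0.03 for Rgs16, 0.04 for Slc1a5 and 0.05 for Rbl1, and no difference to 2 decimals for Prkcb. Among those that rose it gave 0.05 for Psmc1 and 0.07 for Slco2b1. The 5 other probe sets of Nr3c1 ran from -0.30 to 0.18.

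The response was then set beside that of floxed control cells, from 1 untreated and 2 corticosterone arrays. The spread behind the control calls came from the fit of 7 arrays, which includes the knockout arrays. The calls in the 2 genotypes are therefore not independent. Of the 1920 genes called in knockout cells 1896 (98.8%) differed in the same direction in control cells, 1393 were called there in that direction and none was called in the opposite one. The share with the same direction over all genes was not counted, so the 98.8% has no reference here. In control cells 1964 genes (10.8%) were called. The difference of the responses, tested as an interaction over 7 arrays in which the single untreated control array is assumed to vary like the others, passed for 3 genes (0.0165%), while 1064 had an unadjusted p under 0.05. With all 8 arrays no gene passed (199 had an unadjusted p under 0.05).

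Chil3 rose by 6.06 log2 units in knockout cells and by 3.14 in control cells, a difference of 2.92 (SE 0.125, limma adjusted p = 3.4e-05). The untreated control array read 8.34, above the knockout values of 6.39 and 6.12, and the corticosterone control arrays read 11.46 and 11.50, below the knockout values of 12.31 and 12.32. F13a1, the A chain of coagulation factor XIII, rose from 10.26 and 10.31 to 11.78 and 11.73 in knockout cells and from 8.15 to 10.61 and 10.56 in control cells; the rise of 1.47 was 0.97 smaller than that of 2.44 (difference -0.97, SE 0.066, limma adjusted p = 0.0011). Hp, haptoglobin, lay at 10.49 and 10.44 without and 10.40 and 10.48 with hormone in knockout cells, where it did not pass (-0.03, adjusted p = 0.81), and at 8.40 against 9.25 and 9.21 in control cells (difference -0.86, SE 0.080, limma adjusted p = 0.011). Hp missed the threshold when control corticosterone replicate 1 or 2 was left out (adjusted p = 0.249 and 0.176) or knockout corticosterone replicate 1 (adjusted p = 0.0887), while the calls of Chil3 and F13a1 held whichever of the 6 arrays outside the untreated control was left out. For all 3 genes the untreated levels already differed between genotypes, and this rests on 1 untreated control array; on the array left out, control untreated replicate 2, they read 8.04, 8.96 and 7.27 in that order.

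**Figure D4:**
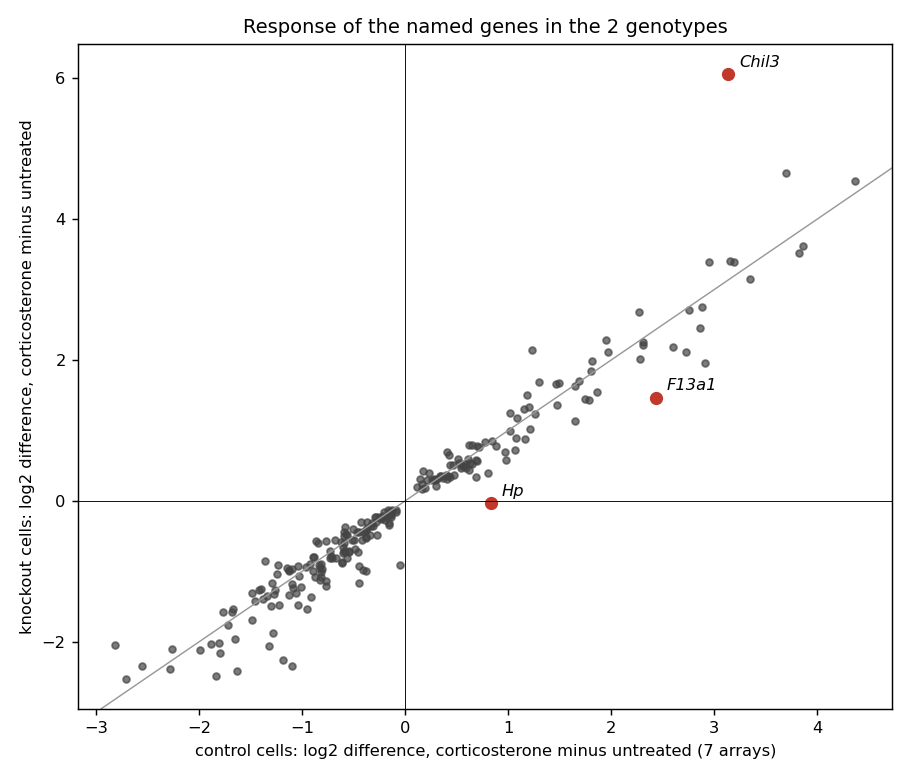
Difference with corticosterone (log2 units) of the named genes in knockout cells (vertical) against control cells (horizontal, from the fit of 7 arrays); the line marks equal differences and the genotypes share no array. Red points are the 3 genes whose difference passed, with Chil3 at 6.06 against 3.14 and F13a1 at 1.47 against 2.44, while Hp is at -0.03 in knockout cells.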

How the data were processed

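RNA from 8 pooled samples (4 groups of 2) was biotin-labelled with NuGEN Ovation and hybridised to Affymetrix mouse arrays, per the labels' protocols. The deposited values are log2 expression levels, made by the authors with RMA in R 2.7 per the submitters' processing notes. RMA subtracts background and makes the arrays' distributions alike, so levels are relative, a global change in RNA content is not visible, and low levels are compressed towards the background. No detection call was used. Precision is limited by having 2 arrays in each group.

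The table held 45101 probe sets. The annotation of the platform paired 34945 with 1 gene and 932 with several, 64 were control probe sets, and 9160 are unnamed here. Symbols of 34741 were matched to the gene table of GRCm38.p6 and 204 kept the older one. The brightest probe set by mean level stood for each gene, and 9010 of 18193 genes had more than 1.

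The knockout contrast was tested in limma 3.58.1 (R 4.3.3) on the 4 knockout arrays alone, with moderated variances and a trend on the mean level (residual df 2, prior df 4.96, median SE 0.107). The genotype difference was an interaction contrast over 7 arrays, without control untreated replicate 2 (residual df 3). The control response was a contrast of the same fit. P-values were adjusted over all 18193 genes (Benjamini-Hochberg), with calls at under 0.05. SE and p-values come from these fits, and differences are corticosterone minus untreated. The fit was tested on simulated data.

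Genes were named by rule: the 15 largest increases and 15 largest decreases outside the well-known list, 4 of that list, up to 4 called members per list with the largest change, and all genes called in the interaction. Where fewer than 2 members of a list were called, the 2 with the smallest p were named; lists with under 5 called may be named whole. The 51 function lists and 11 cell type lists, like the members, were chosen with earlier results of these data known. 1 function list is not reported here. No set test was run. Alternatives covered arrays left out, a replicate block, variances, array weights, the choice of probe set, a filter on low levels and scaling. Promoter windows came from RefSeq. Figures were drawn with matplotlib 3.10.9.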

Additional observations from a re-analysis of the deposited data

Results flagged for a closer look

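The response of 3 genes differed between genotypes by the interaction test over 7 arrays. Chil3 rose by 2.92 log2 units more in knockout than in control cells (limma adjusted p = 3.4e-05). For F13a1 the difference of the responses was -0.97 (limma adjusted p = 0.0011), a smaller rise in knockout cells. For Hp it was -0.86 (limma adjusted p = 0.0105), with a rise in control cells of 0.83 and none that passed in knockout cells. All 3 use a single untreated control array, and with all 8 arrays none passed (adjusted p = 0.423, 0.719 and 0.719).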

How the results depend on the processing

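The 1920 calls in knockout cells became 956 to 2425 when 1 array was left out, lowest without corticosterone replicate 2 (956) and replicate 1 (1064). They became 27 with all 8 arrays, where the prior and residual variances include control untreated replicate 2, and 626 without the trend on the mean level, for which the cause was not tested. Between 1360 and 2493 were called with the replicate block (1360), the mean of all probe sets (1769), robust variances (2019), array weights (1970), another choice of probe set (1946), 7 arrays (2493), genes above the median level alone (1959), quantile normalisation (2002, of which 44.4% higher) and median centring (1558, of which 56.0% higher). The labels do not say that replicate numbers pair the samples, and the deviations of same-numbered knockout samples correlated at -0.235 over 18193 genes; a crossed pairing, added after seeing the data, gave 3805 calls. Of 230 named genes that were called, 202 kept the call with the replicate block, 149 without the trend, 182 and 171 without corticosterone replicates 1 and 2, and 15 with all 8 arrays; none reversed among these.

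The 3 calls of the genotype difference became 2 to 8 when 1 array was left out (8 without knockout untreated replicate 1, 5 without replicate 2), 2 with the replicate block, 3 with the mean of all probe sets, 6 among genes above the median level, and 0 with all 8 arrays (199 at an unadjusted p under 0.05) or without the trend (1084); the cause was not tested. The fit without control untreated replicate 1 was not run, as no untreated control array would remain. Signal over background was not tested, so small differences of dim genes are the least certain.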
